A study of Arabidopsis thaliana with 12 samples.

Results

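Leaves of 2 Arabidopsis thaliana triple mutants were compared: crwn1;4 pnet2_b and crwn1;4 pnet2_a, called here the pnet2_b triple and the pnet2_a triple. Both carry the knockouts of CRWN1 and CRWN4, and each carries in addition a CRISPR edit of a different gene, PNET2_B or PNET2_A. They were compared directly, and a difference is given throughout as pnet2_b minus pnet2_a, so that "rose" and "fell" refer to the pnet2_b triple. All genes with at least 1 FPKM (fragments per kilobase of transcript, scaled to the mapped fragments of the library) in at least 3 of the 6 triple mutant libraries were kept, which left 18618 of the 32833 genes listed. Of these, 73 passed only through the pnet2_b libraries and 15 only through the pnet2_a libraries. WT and the crwn1;4 double mutant served for reference levels, and every genotype had 3 libraries from untreated leaves. The titles give 3 weeks as the age of the plants, whereas the extraction protocol speaks of leaves 4 weeks old. The number of independent edited lines, the number of plants in a library and the mutated alleles were not given in the sources used here. Nothing in the labels says that the replicates came from separate plants, so the p-values measure the spread between these libraries, which may be technical.

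CRWN proteins are filamentous proteins of the plant lamina, the meshwork under the inner nuclear membrane that helps to set the shape of the nucleus and the packing of chromatin. PNET2 proteins are membrane proteins of the plant nuclear envelope, related to the animal NEMP family, and belong to the group with the DUF2215 domain. Loss of CRWN proteins in Arabidopsis is known for small nuclei, dwarfing and an active salicylic acid defence. A large part of the messenger RNA of a leaf serves photosynthesis, in particular the chlorophyll-binding antenna proteins and the subunits of the photosystems encoded in the nucleus.

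The lamina genes that both triple mutants lack were low in both. CRWN1 (AT1G67230, listed as LINC1 in the reference annotation) was at 1.67, 1.47 and 1.88 FPKM in the pnet2_a triple and at 1.46, 1.82 and 1.97 FPKM in the pnet2_b triple, against a mean of 12.4 FPKM in WT. CRWN4 (AT5G65770, LINC4) was at 1.55 ± 0.0794 FPKM in the pnet2_a triple and 1.51 ± 0.50 FPKM in the pnet2_b triple (SD, n = 3 each), against a mean of 7.36 FPKM in WT. Neither gene passed the test between the triples (limma adjusted p = 0.869 and 0.883), and both were low in all 9 libraries labelled as mutant for them. The reference annotation names no gene PNET2, so its DUF2215 genes are given by locus. AT5G67610 was at 7.54, 8.10 and 7.77 FPKM in the pnet2_a triple and at 5.25, 5.44 and 5.87 FPKM in the pnet2_b triple, without overlap. It fell by 0.43 on the log2(FPKM + 1) scale (SE 0.10, limma adjusted p = 0.0377). It lost the call without any 1 of the 6 triple mutant libraries, with adjusted p up to 0.143. AT1G28760 was at 7.15, 5.12 and 7.27 FPKM in the pnet2_a triple and at 6.85, 6.5 and 7.28 FPKM in the pnet2_b triple, values that overlap (adjusted p = 0.769), against means of 1.83 FPKM in WT and 2.79 FPKM in crwn1;4. AT3G49840 lay between 1.71 and 2.54 FPKM in the triples (adjusted p = 0.616). A small edit need not change the level of a transcript, so these values check the CRWN labels but not the PNET2 labels.

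Between the triples, 558 of the 18618 genes tested passed an adjusted p of 0.05 (limma on log2(FPKM + 1), Benjamini-Hochberg), 3.00% of the genes. Of these, 414 genes rose (2.22%) and 144 genes fell (0.773%). An unadjusted p under 0.05 was found for 4020 of the 18618 genes, and list counts at that level are to be read against this number. The median of all genes lay at 0.12 on the log2 scale, to the side of the pnet2_b triple, and list medians below are to be read against it. The split of the calls follows that shift: rises were 74.2% of the calls on the deposited FPKM, 25.7% after median-ratio scaling and 42.8% after quantile normalization. Rescaling every library to a common total gave 534 rises and 132 falls. After median-ratio scaling all 144 falls and 136 of the 414 rises passed, and no call turned in direction. Most of the differences were small, with a median size of 0.45 on the log2 scale among the called genes, and 29 rises (0.156% of the genes tested) and 12 falls (0.0645%) reached 2-fold on that scale. In 30.9% of all genes tested the libraries of the triples did not overlap, in 26.5% with pnet2_b higher and in 4.42% with pnet2_b lower, so a lack of overlap alone was common. The number of calls fell to between 121 and 229 when any 1 triple mutant library was left out, and it was lowest without replicate 2 of the pnet2_a triple. Libraries of one triple mutant correlated at 0.986 to 0.989 (Pearson's r across genes, which are not independent replicates), and libraries of different triples at 0.982 to 0.985.

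**Figure D1:**
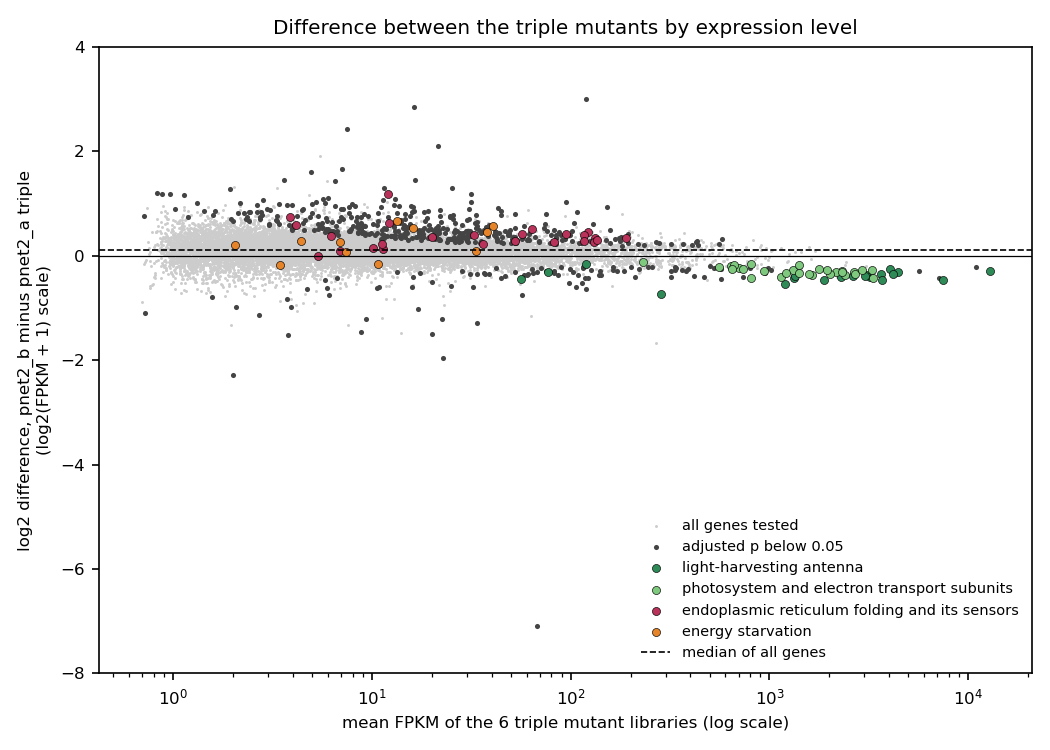
Log2 difference (pnet2_b minus pnet2_a triple, log2(FPKM + 1) scale) of each of the 18618 genes tested against its mean FPKM in the 6 triple mutant libraries, on a log axis. The antenna and photosystem genes lie to the right and below 0, genes of endoplasmic reticulum folding lie at or above 0, and the single point near the bottom is AT3G01345, at -7.09.

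The clearest group difference was in photosynthesis, where nuclear genes for the light-harvesting antenna and the photosystems were lower in the pnet2_b triple. Of 20 antenna genes, which encode the chlorophyll a/b-binding proteins around both photosystems, 19 fell and none rose, and of 29 genes for photosystem and electron transport subunits 24 fell and none rose, against 0.773% of all genes. The antenna median was -0.39 and the photosystem median -0.29 on the log2 scale, against 0.12 for all genes. LHCB2.3 (AT3G27690), an antenna protein of photosystem II, showed the largest antenna difference. It was at 374, 371 and 316 FPKM in the pnet2_a triple and at 227, 196 and 219 FPKM in the pnet2_b triple, a fall by 0.72 (SE 0.07, limma adjusted p = 0.000149). WT and crwn1;4 had 677 and 663 FPKM on average, so the 3 pnet2_b libraries were the lowest of the 12 and the 3 pnet2_a libraries the next. LHCB6, the minor antenna protein CP24, was at 4246, 4400 and 4166 FPKM in the pnet2_a triple and at 3205, 2980 and 3070 FPKM in the pnet2_b triple (fall by 0.47, SE 0.06, adjusted p = 0.000857). The upstream windows of these genes are shown because they hold 1 light-response motif each or both: the G-box (CACGTG) and the core of the I-box (GATAAG), in capitals, in the 250 bases before the annotated start of the gene, read 5′ to 3′ on the strand of the gene from TAIR10.1 (chr3:10255656-10255905, plus strand, and chr1:5447881-5448130, minus strand).
LHCB2.3: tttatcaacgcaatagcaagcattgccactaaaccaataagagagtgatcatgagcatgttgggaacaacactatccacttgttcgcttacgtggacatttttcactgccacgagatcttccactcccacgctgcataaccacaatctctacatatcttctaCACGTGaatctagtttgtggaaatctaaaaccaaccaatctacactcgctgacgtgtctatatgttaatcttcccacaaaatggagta
LHCB6: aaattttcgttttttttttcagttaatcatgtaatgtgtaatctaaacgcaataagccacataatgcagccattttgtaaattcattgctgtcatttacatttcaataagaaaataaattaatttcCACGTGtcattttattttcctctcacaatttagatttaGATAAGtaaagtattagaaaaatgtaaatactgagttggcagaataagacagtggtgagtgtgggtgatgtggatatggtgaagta
Searched on both strands, the G-box was in 4 of 20 antenna windows (20%) and 6 of 29 photosystem windows (20.7%), against 7.06% of the windows of all 18534 genes that had one. The I-box core was in 20% and 24.1% of these windows and in 12.6% of all. The G-box was also in 7 of 25 windows (28%) of the endoplasmic reticulum list below, which held rises and no falls. The window of the antenna gene LHB1B1 held neither motif. These are matches of letters, not sites of binding.

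Photosystem I stroma subunits had some of the smallest adjusted p-values of the photosystem list. PSAD-2, which docks ferredoxin to photosystem I, was at 946, 968 and 866 FPKM in the pnet2_a triple and at 669, 695 and 704 FPKM in the pnet2_b triple. It fell by 0.43 (SE 0.05, limma adjusted p = 0.000857), with no overlap. PSAE-1, another subunit on the stroma side, fell by 0.43 (SE 0.06, adjusted p = 0.0015), and PSBQ-2, of the oxygen-evolving complex of photosystem II, by 0.36 (SE 0.05, adjusted p = 0.0014). The 5 photosystem genes that did not pass were PSBY, ATPC1, FED A, NPQ4 and PETE1, with differences between -0.20 and -0.11. In antenna the exception was LHCA5, a low-level member, at 127 and 113 FPKM on average (adjusted p = 0.168).

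Further from the light reactions the counts were lower, to be read against 0.773% falls among all genes. In the Calvin cycle 5 of 17 genes fell and none rose: GAPA-2, HCEF1 (a fructose-bisphosphatase), RPE and the Rubisco small subunits RBCS3B and RBCS1A, with a list median of -0.18. The most abundant small subunit, RBCS1A, was at 11740 ± 361 FPKM in the pnet2_a triple and 10094 ± 248 FPKM in the pnet2_b triple (SD, n = 3 each; fall by 0.22, SE 0.05, limma adjusted p = 0.0404). Of 7 photorespiration genes 1 fell, SHM1, the mitochondrial serine hydroxymethyltransferase. Of 19 chlorophyll synthesis genes 2 fell, CHLM and PORB, and the other 17 did not pass. None of 12 greening regulators and sigma factors passed (limma), and 3 had an unadjusted p under 0.05, against 4020 of all 18618 genes. Of the GLK factors known to drive antenna genes, GLK1 (listed as GPRI1) had 134 and 123 FPKM on average in the pnet2_a and pnet2_b triple (adjusted p = 0.33) and GLK2 47.1 and 45.4 FPKM (adjusted p = 0.747). The photosynthesis lists together held 51 of the 144 falls, among 92 of their genes tested.

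As a share of all FPKM in a library, the photosynthesis lists took 25.1%, 25.9% and 24.7% in the pnet2_a triple and 21.3%, 20.2% and 20.8% in the pnet2_b triple. WT and crwn1;4 had 30.5% ± 0.794 and 30.7% ± 1.01 (SD, n = 3 each). The triples did not overlap, and the exact two-sided permutation test gave p = 0.1, the smallest that 3 against 3 libraries allow. Of the 57 most abundant genes, each with a mean over 1000 FPKM, 39 fell and none rose, against 0.773% falls among all genes. Calls were more common at higher levels: of 881 genes with a mean of 100 to 1000 FPKM, 48 fell and 37 rose. The 57 include photosynthesis genes already counted above, such as LHCB6 and RBCS1A. Because FPKM are relative to the library, a lower share of such abundant genes and a higher level of the others cannot be told apart here, and fewer cells of a type cannot be told apart from less RNA per cell. Transcripts encoded in the plastid itself summed to 460 ± 5.81 FPKM in the pnet2_a triple and 486 ± 78.1 FPKM in the pnet2_b triple (exact permutation p = 0.8), and only their polyadenylated part enters an mRNA library.

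Without any 1 triple mutant library, 15 to 17 antenna genes and 11 to 19 photosystem genes fell, with 11 photosystem falls without replicate 2 of the pnet2_a triple and 13 without replicate 3 of the pnet2_b triple. The Calvin cycle kept 2 or 3 falls, and RPE, RBCS1A, SHM1 and CHLM lost the call without any 1 of the 6, and PORB without replicate 2 of the pnet2_a triple. Without the intensity trend of the fit, 15 antenna, 8 photosystem and 1 Calvin cycle falls were found. Median-ratio scaling gave 20 antenna and 28 photosystem falls. Quantile normalization, which sets the values of every library equal by rank, gave 7 and 3, and the cause of this lower count was not tested. Summed marker levels of some other cell types were also higher in the pnet2_b triple. The summed level of 9 phloem and xylem markers was between 106 and 110 FPKM in the pnet2_a triple and between 130 and 155 FPKM in the pnet2_b triple. Of these, SUC2 and PP2-A1 rose, and 12 stomatal markers held 1 rise, TMM, against 2.22% rises among all genes. The medians of the 2 lists were 0.17 and 0.15 on the log2 scale, against 0.12 for all genes. Differences were negative for 2 of the 9 and 4 of the 12 markers. SUC2, PP2-A1 and TMM each lost the call without any 1 triple mutant library, and no gene of these 2 lists rose after median-ratio scaling or quantile normalization. The 8 epidermis markers summed to 1603 ± 89.5 FPKM in the pnet2_a triple and 1680 ± 45.4 FPKM in the pnet2_b triple (SD, n = 3 each), with overlap (exact permutation p = 0.3). The 4 mesophyll markers, all of them photosynthesis genes, held 2 falls, against 0.773% falls among all genes. Of 5 root markers 2 were tested and neither passed, with a summed level of 54.1 to 60.9 FPKM in the pnet2_a triple and 66.6 to 77.9 FPKM in the pnet2_b triple. Seed markers were at or near 0 in every library, the root markers MYB66, SHV2 and IRT1 were under 1 FPKM on average, and 7 flower markers summed to at most 4.16 FPKM in the triples. The part of cell composition in these differences was not tested.

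**Figure D2:**
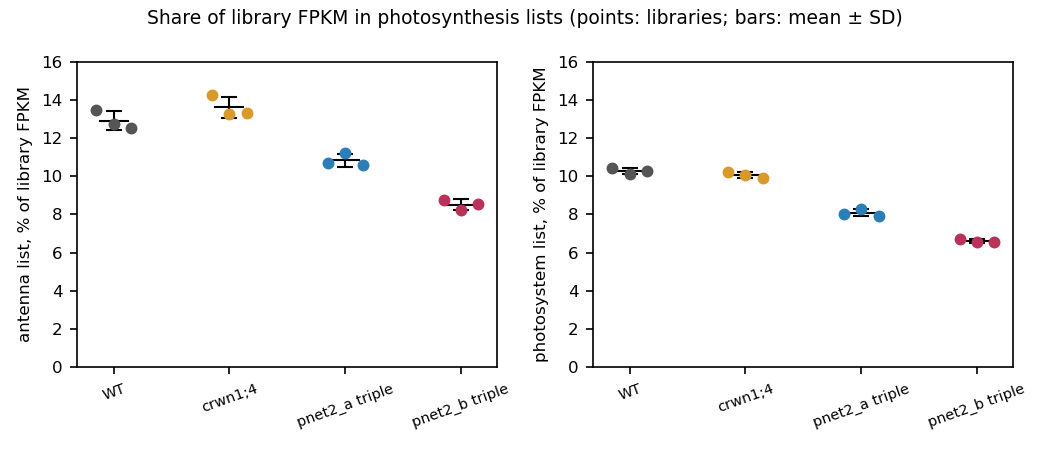
Share of the summed FPKM of each library in the 20 antenna genes (left) and in the 29 photosystem and electron transport genes (right), with points for libraries and bars for mean ± SD. The antenna share was 10.8% in the pnet2_a triple and 8.50% in the pnet2_b triple, and the photosystem share 8.08% and 6.61%, all below WT and crwn1;4.

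The largest rise was of the antisense RNA AT2G09785, given with the noncoding genes, and VSP1, MAF5 and VSP2 came next on the log2 scale. VSP1 and VSP2 encode vegetative storage proteins, acid phosphatases that accumulate under jasmonate and deter insects. VSP1 was at 2.46, 2.04 and 3.94 FPKM in the pnet2_a triple and at 49.2, 13.1 and 27.0 FPKM in the pnet2_b triple, a 10.6-fold ratio of means (log2 difference 2.86, SE 0.36, limma adjusted p = 0.00115). WT and crwn1;4 lay between, at 16.9 and 17.7 FPKM, so the pnet2_a libraries were below every other library and the pnet2_b libraries overlapped with WT and crwn1;4. VSP2 was at 5.53, 6.42 and 7.45 FPKM against 61.9, 14.2 and 32.8 FPKM (log2 difference 2.1, SE 0.44, adjusted p = 0.025), with the pnet2_b libraries in the same order as for VSP1. VSP2 lost the call without any 1 triple mutant library other than replicate 2 of the pnet2_b triple, with adjusted p up to 0.0972, while VSP1 passed without each of the 6.

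MAF5 (AT5G65080), a MADS-box gene of the FLC family that delays flowering, stood apart in the pnet2_b triple. It was at 1.07, 1.87 and 2.19 FPKM in the pnet2_a triple, at 11.5, 14.5 and 14.1 FPKM in the pnet2_b triple, and at 2.73 and 2.34 FPKM on average in WT and crwn1;4 (log2 difference 2.42, SE 0.22, limma adjusted p = 0.00011). MAF5 is the last of a row of 4 FLC relatives on chromosome 5. The others did not pass: AT5G65050 (AGL31) had an adjusted p of 0.407 and MAF3 of 0.559, and MAF4 was between 0 and 1.80 FPKM (adjusted p = 0.201). FLC itself was under 1 FPKM in every triple mutant library and was not tested.

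Genes of the glucosinolate and myrosinase defence of the crucifers also rose. MBP2, a myrosinase-binding protein, was at 2.68, 2.41 and 3.51 FPKM in the pnet2_a triple and at 12.4, 9.26 and 12.2 FPKM in the pnet2_b triple (log2 difference 1.67, SE 0.18, limma adjusted p = 0.000385). It lies between AT1G52000 and MBP1 in a run of 3 called genes on chr1:19333088-19352791 (TAIR10.1), which all rose. MBP1 was at 9 ± 1.36 FPKM against 18.3 ± 3.02 FPKM (SD, n = 3 each) and AT1G52000 at 6.81 ± 0.633 FPKM against 10.3 ± 1.23 FPKM. AT1G52000 lost the call without any 1 triple mutant library, and MBP1 and JAL23 without replicate 2 of the pnet2_a triple. Further rises were JAL23, a jacalin-related lectin, and BGLU18, a beta-glucosidase of endoplasmic reticulum bodies, at 104 ± 19.5 and 199.5 ± 37.7 FPKM. BGLU18 was picked out after its values were seen. Such close relatives share sequence, and the way the authors' counting divided their reads was not stated.

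The aliphatic glucosinolate list, the methionine-derived branch, held 5 rises among 13 genes tested, against 2.22% of all genes, no fall, and a median of 0.36. BCAT4, the first transaminase of the pathway, was at 105, 98.6 and 103 FPKM in the pnet2_a triple and at 167, 163 and 143 FPKM in the pnet2_b triple (log2 difference 0.62, SE 0.10, limma adjusted p = 0.008). The chain-elongation genes MAM1 and IIL1, the cytochrome P450 CYP79F1 and the sulfotransferase SOT17 rose as well, and the regulators MYB28 and MYB29 did not pass (adjusted p = 0.16 and 0.2). The list kept 2 rises after median-ratio scaling, BCAT4 and SOT17. Without 1 triple mutant library it kept between 0 and 2, and none without replicate 2 of the pnet2_a triple. WT had means of 127 FPKM for BCAT4, 169 FPKM for MAM1 and 65.0 FPKM for CYP79F1. Against WT, BCAT4 fell in the pnet2_a triple by 0.31 (limma adjusted p = 0.0346) and rose in the pnet2_b triple by 0.31 (adjusted p = 0.0245). MAM1 fell in the pnet2_a triple (adjusted p = 0.0131) and did not pass in the pnet2_b triple (adjusted p = 0.349), while CYP79F1 did not pass in the pnet2_a triple (adjusted p = 0.418) and rose in the pnet2_b triple (adjusted p = 0.0082). None of 11 indole glucosinolate genes and none of 9 camalexin genes passed (limma), and 0 and 2 of them had an unadjusted p under 0.05. Among all 18618 genes, 4020 had such a p.

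**Figure D3:**
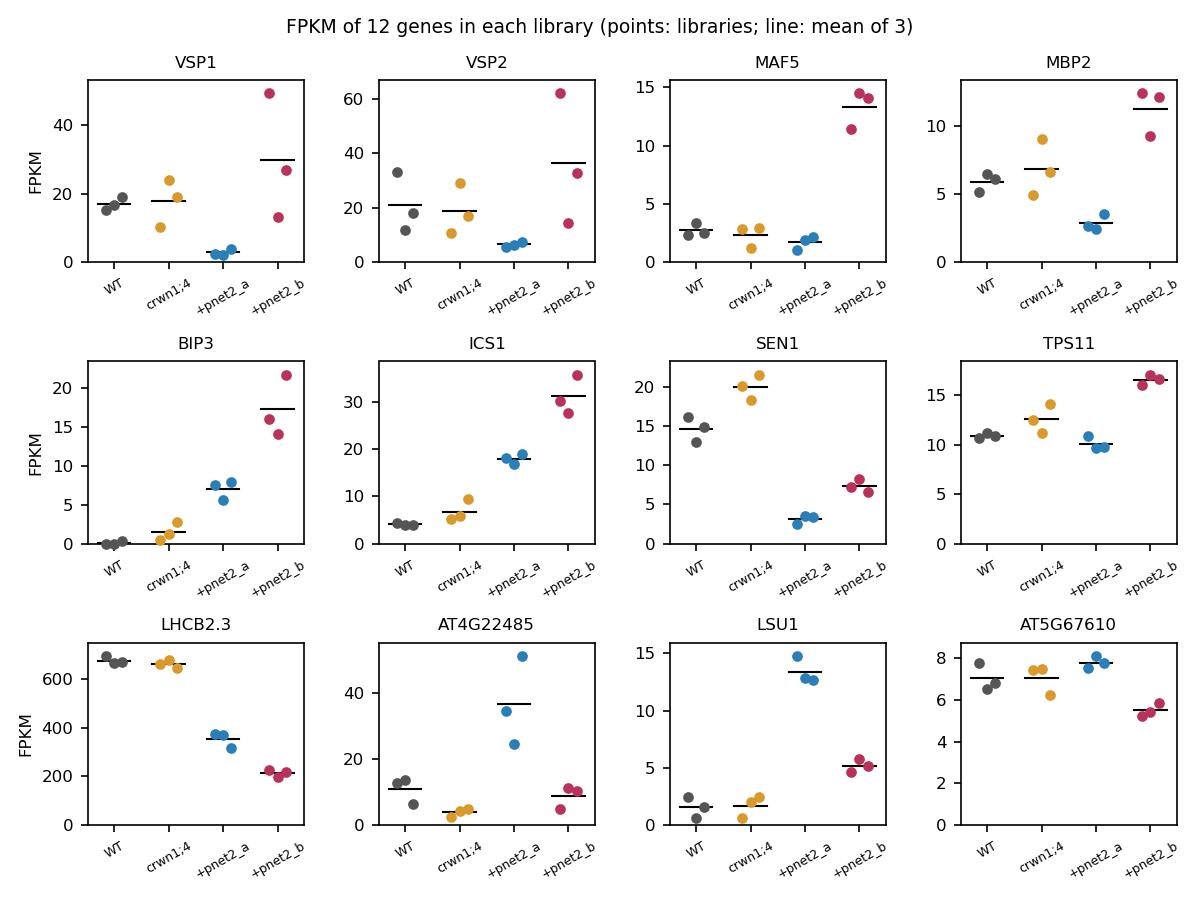
FPKM of 12 genes in each of the 12 libraries, on linear axes that start at 0, with points for libraries in replicate order and a line for the mean of 3. The first 8 genes rose and the last 4 fell in the pnet2_b triple, and VSP1 and VSP2 have the widest spread among its libraries.

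Some chaperones and folding enzymes of the endoplasmic reticulum rose in the pnet2_b triple. Of 25 genes, 7 rose (BIP3, TIN1, PDIL2-2, BIP2, CRT1b, CNX1 and PDIL2-3), against 2.22% of all genes, none fell and 18 did not pass, with a list median of 0.35, and 23 of the 25 lay above the median of all genes. BIP3, the stress-induced member of the BiP chaperones, was at 7.50, 5.57 and 7.85 FPKM in the pnet2_a triple and at 16, 14.1 and 21.6 FPKM in the pnet2_b triple (log2 difference 1.19, SE 0.28, limma adjusted p = 0.0368). In WT it was at or near 0, and in crwn1;4 at 1.48 FPKM on average. The abundant BIP2 was at 103, 103 and 104 FPKM against 139, 131 and 157 FPKM (log2 difference 0.45, SE 0.08, adjusted p = 0.00911). Calreticulin CRT1b, calnexin CNX1 and the protein disulfide isomerase PDIL2-2, which handle newly made glycoproteins and disulfide bonds, rose by 0.41, 0.39 and 0.62 on the log2 scale. The stress sensors and transducers IRE1A, IRE1B (listed as IRE1-1), BZIP17, BZIP28 and BZIP60 did not pass, with differences between 0.00 and 0.28.

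The upstream windows of BIP2 and TIN1, a gene induced by tunicamycin, are shown for the core of the endoplasmic reticulum stress element (CCACG, in capitals where it stands on the strand of the gene), again from TAIR10.1 (chr5:16810694-16810943, minus strand, and chr5:25784154-25784403, plus strand).
BIP2: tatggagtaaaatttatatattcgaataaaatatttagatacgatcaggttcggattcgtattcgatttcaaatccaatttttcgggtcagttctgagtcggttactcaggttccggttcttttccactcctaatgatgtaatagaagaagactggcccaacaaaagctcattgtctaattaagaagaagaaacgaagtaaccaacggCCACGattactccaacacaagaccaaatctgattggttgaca
TIN1: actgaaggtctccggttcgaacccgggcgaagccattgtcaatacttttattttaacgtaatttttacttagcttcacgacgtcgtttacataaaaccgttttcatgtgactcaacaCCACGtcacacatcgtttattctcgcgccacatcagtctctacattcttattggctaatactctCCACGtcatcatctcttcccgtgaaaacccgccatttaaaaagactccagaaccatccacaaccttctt
On either strand this core was in 10 of 25 windows of the list (40.0%), against 15.6% of all windows and 35% of the antenna windows. It overlaps the G-box where a C stands before it, and the window of BIP3 holds a G-box but not the core.

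The count of endoplasmic reticulum genes depended on the setting. It was 2 after median-ratio scaling (BIP2 and PDIL2-2), 5 after quantile normalization and 16 in a fit on the 6 triple mutant libraries alone. Left-out triple mutant libraries gave between 0 and 5, and none without replicate 3 of the pnet2_b triple, the library with the highest level of BIP3. BIP3 lost the call without any 1 triple mutant library, with adjusted p up to 0.151, and its highest adjusted p over all alternatives was 0.236. CNX1 lost it without 5 of the 6. None of 10 cytosolic heat shock genes passed (limma), and 1 rose after quantile normalization. An unadjusted p under 0.05 was found for 3 of them, against 4020 of all 18618 genes.

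Of 9 salicylic acid synthesis genes 2 passed as rises in the pnet2_b triple, both enzymes of the isochorismate route, against 2.22% rises among all genes. ICS1 (AT1G74710, listed as EDS16), which makes isochorismate, was at 18.195, 16.9 and 18.9 FPKM in the pnet2_a triple and at 30.2, 27.8 and 35.7 FPKM in the pnet2_b triple (log2 difference 0.76, SE 0.16, limma adjusted p = 0.0239), against 4.06 FPKM in WT and 6.77 FPKM in crwn1;4. PBS3, which conjugates isochorismate with glutamate, was at 9.92, 10.9 and 12.6 FPKM against 19.9, 19.1 and 23.3 FPKM (log2 difference 0.84, SE 0.12, adjusted p = 0.00306). The other 7 of 9 genes, with EDS5, EPS1, EDS1, PAD4, SAG101, CBP60G and SARD1, did not pass, and all 9 lay above the median of all genes. An unadjusted p under 0.05 was found for 7 of the 9 (limma), against 4020 of all 18618 genes. In a fit on the 6 triple mutant libraries 6 of the 9 rose, against 836 of all genes. PBS3 passed without each triple mutant library in turn, and ICS1 lost the call without any of them other than replicate 2 of the pnet2_b triple.

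Downstream of salicylic acid, few genes passed, to be read against 2.22% rises and 0.773% falls among all genes. Of 11 tested genes of systemic acquired resistance, pathogenesis-related proteins included, 1 rose, NIMIN1, a binding partner of the receptor NPR1, at 23.3 ± 2.93 and 38.4 ± 1.89 FPKM (SD, n = 3 each), and it lost the call without any 1 triple mutant library. An unadjusted p under 0.05 was found for 5 of the 11 (limma), against 4020 of all 18618 genes. In a fit on the 6 triple mutant libraries 3 of the 11 rose, against 836 of all genes. PR1 was at 565, 549 and 712 FPKM in the pnet2_a triple and at 772, 512 and 700 FPKM in the pnet2_b triple, overlapping widely (adjusted p = 0.907), against 3.33 FPKM in WT. PR2 (listed as BGL2) and PR5 did not pass either (adjusted p = 0.434 and 0.324). The receptor paralogue NPR3 rose by 0.44 (SE 0.11, adjusted p = 0.0449), and AIG1, induced by avirulent bacteria, was at 18.8 ± 2.69 and 44.1 ± 6.3 FPKM (log2 difference 1.19, adjusted p = 0.0262). NPR3 and AIG1 also lost the call without any 1 of the triple mutant libraries. No gene passed among 18 WRKY factors, 18 NLR receptors, 17 genes of pattern-triggered immunity, 24 cysteine-rich receptor-like kinases and 10 cell death regulators (limma). At an unadjusted p under 0.05 these lists held 8, 6, 5, 9 and 0 genes, against 4020 of all 18618 genes. In a fit on the 6 triple mutant libraries 4, 0, 4, 5 and 0 passed, against 1045 of all genes.

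Some genes that respond to low sugar and darkness rose in the pnet2_b triple. Of 11 energy starvation genes 4 rose, TPS11, TPS8, DIN10 and GDH2, against 2.22% of all genes. None fell, and 7 did not pass, among them 2 with a negative difference. TPS11, of the trehalose-6-phosphate synthase family, was at 10.9, 9.62 and 9.76 FPKM in the pnet2_a triple and at 16.1, 17.1 and 16.6 FPKM in the pnet2_b triple (log2 difference 0.67, SE 0.09, limma adjusted p = 0.00176). DIN10, a raffinose synthase family gene, rose by 0.57 (SE 0.10, adjusted p = 0.00968) and GDH2, a glutamate dehydrogenase, by 0.46 (SE 0.08, adjusted p = 0.00968). DIN6, the asparagine synthetase also listed as ASN1, was at 1.85 and 2.26 FPKM on average and did not pass. SEN1, a dark- and senescence-induced gene, was the one rise of 13 senescence genes. It was at 2.44, 3.5 and 3.37 FPKM in the pnet2_a triple and at 7.20, 8.29 and 6.62 FPKM in the pnet2_b triple (log2 difference 1.03, SE 0.12, adjusted p = 0.000857), and both triples were below WT (14.6 FPKM) and crwn1;4 (19.9 FPKM). BT2, a BTB and TAZ domain protein tied to sugar and nitrogen signals, and its relative BT5 were at 14.1 ± 1.37 and 36.1 ± 5.11 FPKM and at 10.4 ± 1.66 and 21.0 ± 3.02 FPKM (SD, n = 3 each). BT5 was picked out after its values were seen. TPS11, TPS8, SEN1 and BT2 passed without any 1 triple mutant library, GDH2 failed without replicate 3 of the pnet2_b triple, DIN10 without replicate 2 of the pnet2_a triple, and BT5 passed in 15 of 24 alternative settings.

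Jasmonate genes moved in both directions, with counts to be read against 2.22% rises and 0.773% falls among all genes. Of 24 genes 3 rose, VSP1, VSP2 and the repressor JAZ9 (listed as TIFY7), and 2 fell, AOS and AOC2, enzymes of successive steps of jasmonate synthesis. AOC2 was at 133, 139 and 146 FPKM in the pnet2_a triple and at 107, 94.5 and 111 FPKM in the pnet2_b triple (fall by 0.42, SE 0.08, limma adjusted p = 0.017). AOS fell by 0.36 (SE 0.09, adjusted p = 0.0473) and LOX2 was at 286 and 265 FPKM on average (adjusted p = 0.574). In the branch shared with ethylene 1 of 6 genes fell, PR4, and PDF1.2 did not pass (adjusted p = 0.511). MYC2, the main transcription factor of the response, was at 13.7 and 15.7 FPKM on average and did not pass. Without 1 of the triple mutant libraries this list kept 1 or 2 rises and at most 1 fall, and PR4 lost the call in 5 of the 6.

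Detoxification, cell wall and water transport each held few calls, to be read against 2.22% rises and 0.773% falls among all genes. Among 22 glutathione S-transferases 3 rose, GSTF11, GSTU7 and GSTU9, and none fell. GSTF11, linked to glucosinolate synthesis, was at 7.31, 12 and 9.16 FPKM in the pnet2_a triple and at 18.1, 19.6 and 14.1 FPKM in the pnet2_b triple (log2 difference 0.81, SE 0.15, limma adjusted p = 0.0114). Among 21 expansins and XTH enzymes, which loosen and remodel the cell wall, TCH4, XTH9 and EXPA6 rose. TCH4, also induced by touch, was at 23.0, 16.4 and 21.9 FPKM against 38.5, 49.4 and 40.4 FPKM (log2 difference 1.04, SE 0.16, adjusted p = 0.00384), and it was the one of the 3 that passed after median-ratio scaling. Of 16 aquaporins PIP3 rose and PIP1;5 fell, by 0.38 (SE 0.07, adjusted p = 0.0116). CER1, of cuticular wax synthesis, was at 13.3 ± 1.57 and 25.0 ± 3.81 FPKM (SD, n = 3 each; log2 difference 0.86, adjusted p = 0.00487). TCH4 and CER1 passed without each triple mutant library in turn. GSTF11 lost the call without replicate 2 of the pnet2_b triple, PIP1;5 without replicate 2 of the pnet2_a triple, GSTU9 without 2 of the 6 libraries, EXPA6 without 3, GSTU7 without 4, and XTH9 and PIP3 without 5.

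Genes of nutrient shortage were lower in the pnet2_b triple in the few cases that passed, against 0.773% falls among all genes. LSU1, induced by low sulfur, was at 14.7, 12.8 and 12.7 FPKM in the pnet2_a triple and at 4.6, 5.8 and 5.19 FPKM in the pnet2_b triple (fall by 1.22, SE 0.27, limma adjusted p = 0.0300), against 1.55 FPKM in WT. It was the one fall of 10 sulfur genes, and SDI1 (listed as ATSDI1) had an adjusted p of 0.0518. Of 7 phosphate starvation genes 2 fell, SPX3 and the phosphate transporter PHT1;4. SPX3 was at 1.52, 1.16 and 1.32 FPKM in the pnet2_a triple and listed at 0, 0 and 0.299 FPKM in the pnet2_b triple, and at 0 in WT and crwn1;4. LSU1 and PHT1;4 lost the call without any 1 triple mutant library, and SPX3 passed without each. SPX3 met the filter only through the pnet2_a libraries, where it is high. Only a fall could be called for it, so its call is given as a description. None of 8 iron genes passed (limma) and 1 had an unadjusted p under 0.05, against 4020 of all 18618 genes. NAS3, a nicotianamine synthase outside this list, fell by 0.76 (SE 0.16, limma adjusted p = 0.0218), at 7.91 ± 0.469 and 4.31 ± 0.764 FPKM. NAS3 lost the call in 5 of the 6 left-out triple mutant libraries.

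In the cold response list COR413IM1, a protein of the inner chloroplast envelope, fell and COR15A rose, out of 14. Single calls in this and the next lists are to be read against 2.22% rises and 0.773% falls among all genes. COR413IM1 was at 75.0, 73.8 and 66.9 FPKM in the pnet2_a triple and at 38.3, 42.2 and 45.8 FPKM in the pnet2_b triple (fall by 0.76, SE 0.10, limma adjusted p = 0.00115), and all 6 WT and crwn1;4 libraries had over 63 FPKM. Single rises were LHY of 18 circadian clock genes, XRI1 of 17 DNA damage genes, IAA2 of 11 auxin genes and RHL41 of 12 oxidative stress genes, a list in which the superoxide dismutase CSD2 fell. LHY, RHL41, CSD2 and COR15A lost the call in 5 or 6 of the 6 left-out triple mutant libraries, XRI1 and IAA2 in 2, and COR413IM1 in none. No gene passed among 19 of the cell cycle, 16 of DNA methylation and Polycomb, 14 of the nuclear lamina and envelope, 8 of the nuclear pore, 12 of abscisic acid and drought, 9 of flavonoid synthesis and 4 glucanases and chitinases (limma). At an unadjusted p under 0.05 these 7 lists held 3, 5, 2, 2, 1, 0 and 0 genes, against 4020 of all 18618 genes. In a fit on the 6 triple mutant libraries 1 cell cycle gene and 1 of the glucanases and chitinases passed. CRWN2 (listed as LINC2) and CRWN3 (LINC3), the lamina genes left in both mutants, were at 5.22 and 6.47 FPKM and at 9.43 and 11.3 FPKM on average (adjusted p = 0.225 and 0.18).

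**Figure D4:**
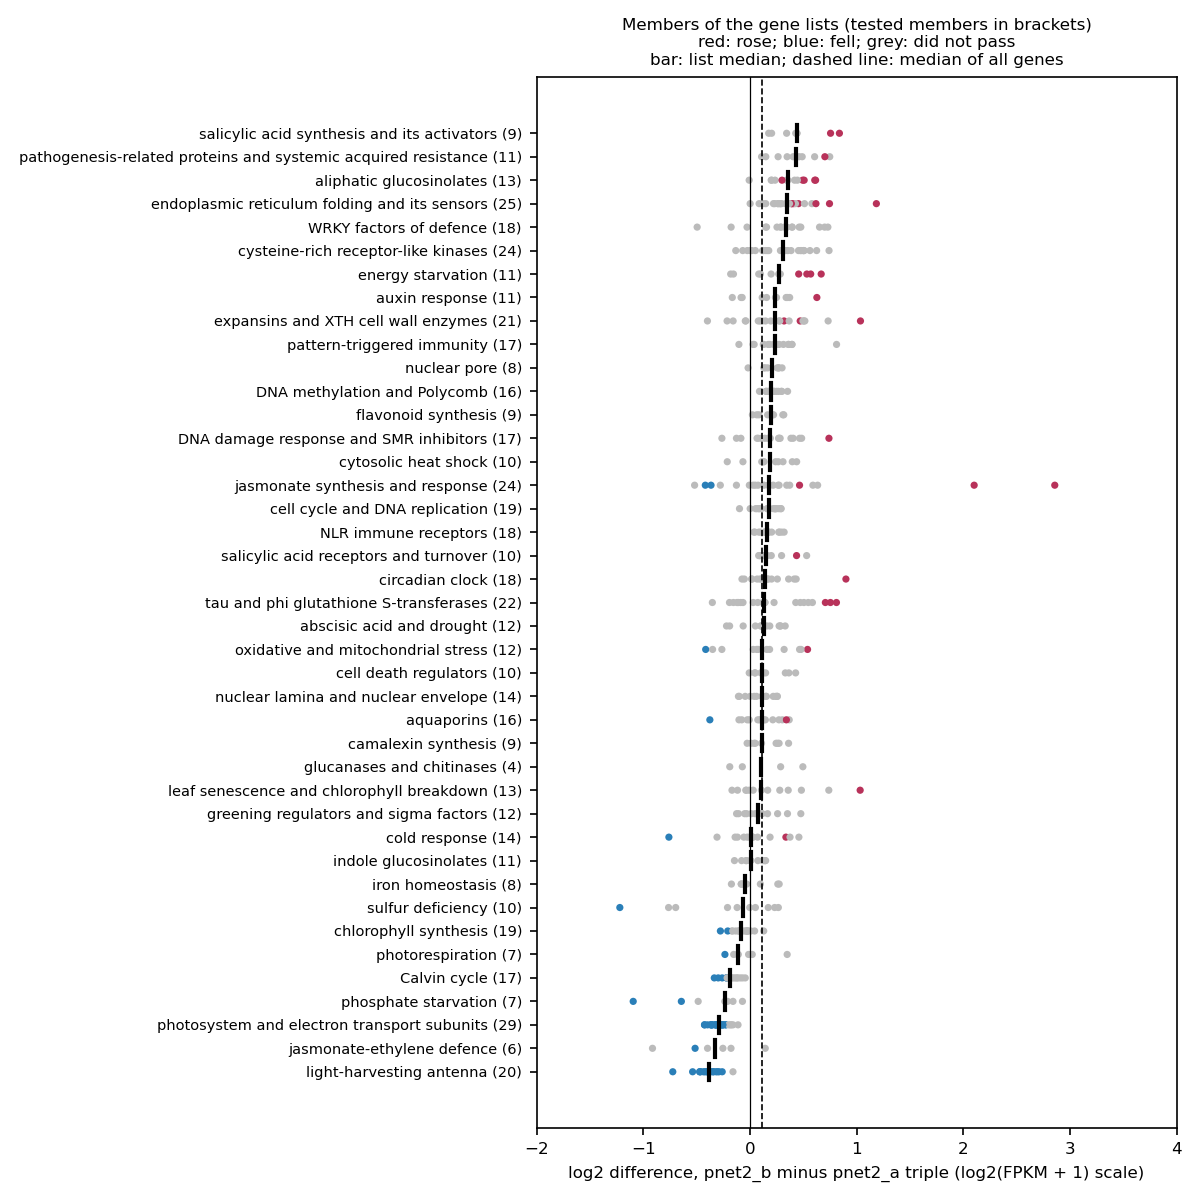
Log2 difference (pnet2_b minus pnet2_a triple, log2(FPKM + 1) scale) of every tested member of the 41 gene lists, one line per list, ordered by list median. Antenna and photosystem members form the blue block below 0, and most members of the defence lists at the top lie above the dashed median of all genes in grey, without passing the test.

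The largest fall was of AT3G01345, an uncharacterized protein gene at chr3:129138-130749 (plus strand, TAIR10.1). It was at 146, 130 and 131 FPKM in the pnet2_a triple and listed at 0 in the 3 pnet2_b libraries and in all 6 WT and crwn1;4 libraries (limma adjusted p = 3.03e-14). A fold is not given against a group listed at 0. Its neighbour AT3G01340 was at 45.6 and 44.1 FPKM on average in the triples (adjusted p = 0.771), and AT3G01350 at 1.57 and 2.60 FPKM (adjusted p = 0.129). Further along, the antisense RNA AT3G01005 (chr3:137987-138174) rose, at 3.03 and 10.1 FPKM on average (log2 difference 1.43, SE 0.29, adjusted p = 0.0218). AT3G01005 lost the call without 4 of the 6 triple mutant libraries, and AT3G01360, which it overlaps, did not pass (adjusted p = 0.557). The long noncoding RNA AT1G06957 was at 3.41, 5.50 and 3.07 FPKM in the pnet2_a triple, listed at 0 in the pnet2_b triple, and at 5.18 FPKM on average in WT (adjusted p = 0.00115). AT3G01345 and AT1G06957 met the filter only through the pnet2_a libraries, so only a fall could be called for them. No gene was listed at 0 in the pnet2_a triple with at least 1 FPKM in all 3 pnet2_b libraries.

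Some further genes were picked out after their values were seen, because their calls held in all 24 alternatives. AT5G53330, a ubiquitin-associated domain gene, was at 27.6, 31.4 and 31.2 FPKM in the pnet2_a triple and at 9.13, 11.0 and 10.1 FPKM in the pnet2_b triple, where it lay below all 9 other libraries (fall by 1.49, SE 0.09, limma adjusted p = 8.77e-07). It overlaps the end of AT5G53340 on the other strand, which did not pass (adjusted p = 0.379). AT2G32870, a TRAF-like gene, was at 8.42, 7.98 and 8.47 FPKM against 24.3, 29.2 and 20.3 FPKM, with 29.4 FPKM in WT, so here the pnet2_a triple was below all other libraries. The papain-family protease AT4G11320 and the aluminium-induced AT3G15450 rose by 1.3 and 1.03 (adjusted p = 0.00176 and 0.000385).

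Other large differences that the choice by size named were of mixed function. The glutaredoxin AT2G47880, of a family that reduces disulfides, was at 2.71, 1.43 and 1.68 FPKM in the pnet2_a triple and at 6.29, 10.4 and 7.20 FPKM in the pnet2_b triple (log2 difference 1.60, SE 0.20, limma adjusted p = 0.00115), and AT2G47885, which overlaps it, rose as well but lost the call without replicate 2 of the pnet2_a triple or replicate 3 of the pnet2_b triple (adjusted p up to 0.0553). PHI-1, of the phosphate-responsive 1 family, was at 3.32 ± 0.687 and 8.05 ± 0.248 FPKM (SD, n = 3 each) and lost the call without any 1 triple mutant library. Among the falls, NEET, an iron-sulfur protein of the chloroplast, was at 33.9, 44.3 and 39.0 FPKM against 25.6, 25.2 and 25.6 FPKM (fall by 0.59, SE 0.11, adjusted p = 0.0147), with 82.9 FPKM in WT. MRU1, which responds to excess methionine, was at 28.1, 29.0 and 33.5 FPKM against 20, 20.3 and 19.1 FPKM, and PYD4, of pyrimidine breakdown, at 5.58 ± 1.4 and 2.29 ± 0.428 FPKM. NEET lost the call in 4 of the 6 left-out triple mutant libraries and PYD4 in 3, and MRU1 passed in each.

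A group of neighbouring genes on chromosome 4, which the reference describes as lipid-transfer or 2S albumin proteins and overlapping uncharacterized genes, was lower in the pnet2_b triple. AT4G22485 was at 34.4, 24.4 and 50.9 FPKM in the pnet2_a triple and at 4.80, 11.2 and 10.4 FPKM in the pnet2_b triple (fall by 1.95, SE 0.32, limma adjusted p = 0.00686), against 11.0 FPKM in WT and 3.81 FPKM in crwn1;4. AT4G22520 was at 5.47, 5 and 7.85 FPKM against 1.15, 2.08 and 1.2 FPKM (fall by 1.52, adjusted p = 0.0092). AT4G22475, AT4G22495 and AT4G22505 fell by 1.46, 1.22 and 1.29, and lost the call without 4, 6 and 5 of the 6 triple mutant libraries. AT4G22510, AT4G22513 and AT4G22517 had differences of -1.47, -0.95 and -0.82 and did not pass (adjusted p = 0.0505, 0.0808 and 0.121), nor did AT4G22490, at 26.9 and 23.5 FPKM on average, or AT4G22470. AT4G22475 overlaps AT4G22485 and AT4G22495 overlaps AT4G22505 on opposite strands, and so does AT4G22510 with AT4G22513 and AT4G22517. AT4G22520 lies inside AT4G22530, a gene on the other strand at 10.1 and 8.46 FPKM on average (adjusted p = 0.386). Reads of such overlapping genes can be told apart only if strand was used in counting, and the sources used here do not state it.

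**Figure D5:**
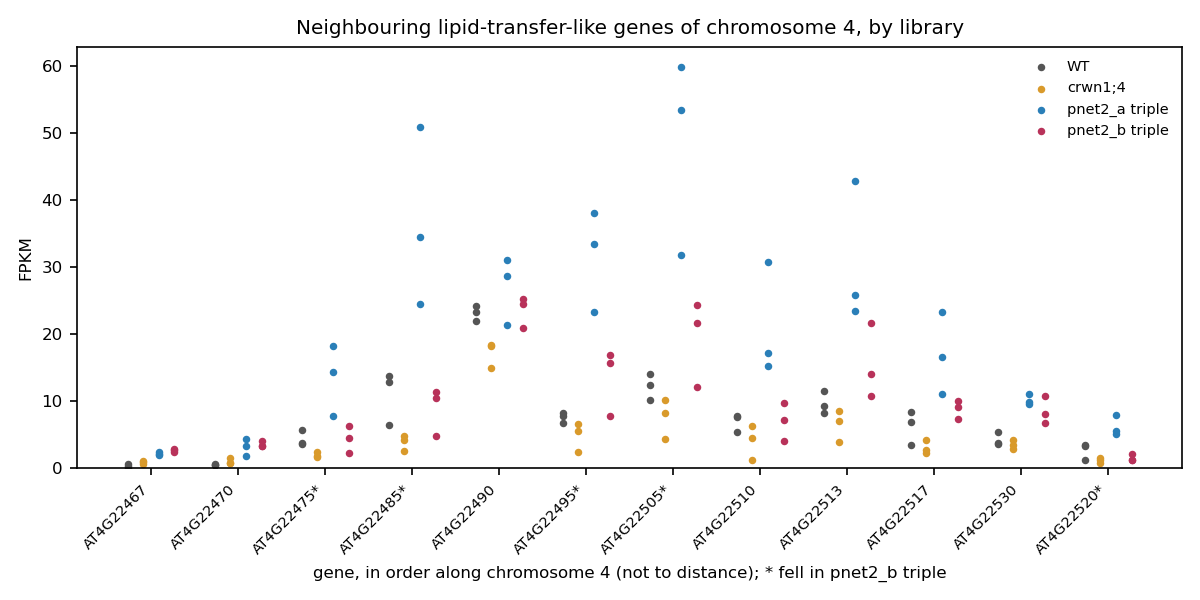
FPKM of 12 neighbouring genes of chromosome 4 in each library, in genome order and not to distance, with asterisks at the 5 genes that fell. The pnet2_a libraries are highest at these 5 genes, while at AT4G22490 the libraries of the triples overlap.

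Calls among noncoding genes were few in number, with 1 large one, and their shares are to be read against 2.22% rises and 0.773% falls among all genes. AT2G09785, annotated as antisense RNA at chr2:19345150-19345317 (minus strand, TAIR10.1), was at 26.8, 26.5 and 23.9 FPKM in the pnet2_a triple and at 223, 215 and 200 FPKM in the pnet2_b triple (log2 difference 3.00, SE 0.14, limma adjusted p = 3.86e-08). WT was at 152 and crwn1;4 at 116 FPKM, so the pnet2_a triple was the low one. It lies inside UBQ6 (AT2G47110) on the other strand, at 326, 318 and 336 FPKM against 324, 342 and 325 FPKM (adjusted p = 0.918), and without a stated strand setting reads of the pair cannot be told apart. Of 41 antisense RNAs tested 3 rose (7.32%), and of 692 long noncoding RNAs 4 rose and 2 fell (0.867% called). Of 34 miRNA genes 3 rose (8.82%), MIR414, MIR833a and MIR5642a. The shares of antisense RNAs and miRNA genes rest on 3 calls each. The largest of these miRNA loci in level, MIR5642a, was at 40.7 ± 4.25 and 57.7 ± 5.98 FPKM (SD, n = 3 each) and overlaps other genes, and a library of mRNA does not measure the mature miRNA. The calls were spread over the 5 chromosomes, at 2.55% to 3.38% of the genes tested on each. Besides the MBP run, 2 runs of 3 neighbouring called genes were found, both of antenna genes: CAB3, CAB2 and CAB1 on chromosome 1, and AT2G08665, LHB1B2 and LHB1B1 on chromosome 2, where AT2G08665 is a noncoding gene that overlaps the antenna gene LHB1B2.

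The difference between the triples was set beside that between crwn1;4 and WT, whose means share no library with it. Both contrasts came from 1 fit with a common estimate of the spread of each gene, so their calls are not independent. Across the 18618 genes the 2 differences had a Pearson correlation of 0.0806, given as a description. Of the genes that rose in the pnet2_b triple against the pnet2_a triple, 60 also rose in crwn1;4 against WT, which is 14.5% of the 414 and 12.9% of the 466 rises there (2.50% of all genes rose in crwn1;4). For falls the shared number was 3, or 2.08% of the 144 and 2.65% of the 113 (0.607% of all genes fell in crwn1;4). In opposite directions, 5 of the 414 rises fell in crwn1;4 against WT, and 2 of the 144 falls rose there. The antenna list had a median log2 difference of 0.02 between crwn1;4 and WT, and the endoplasmic reticulum list one of 0.15.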

How the data were processed

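RNA was taken from about 50 mg of leaves per sample and made into strand-specific mRNA libraries, per the labels' protocols. HISAT2 2.0.4 and the build TAIR10 are named in the submitters' processing notes. The counting program, the annotation release, the strand setting and the read depth were not stated in the sources used here. The authors deposited 1 table with FPKM values for 32833 genes in 12 libraries. Low FPKM values gave no common step from which reads could be recovered, so depth is unknown and no counting interval is given. Summed FPKM was 622263 to 669711 in a library.

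log2(FPKM + 1) was fitted in limma 3.58.1 (R 4.3.3) with genotype as the only term, over all 12 libraries (8 residual degrees of freedom) and with an intensity trend. The contrast was pnet2_b minus pnet2_a, over 18618 genes, with Benjamini-Hochberg adjustment and a threshold of 0.05. A fold change on this scale understates that of low genes. Composition was tested with exact permutation (scipy 1.17.1). The alternatives were other pseudocounts, filters, scalings and limma settings, a replicate block and each library left out.

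Locus names, coordinates and upstream windows come from the NCBI RefSeq annotation of TAIR10.1, which matched 32548 of the 32833 IDs. The 285 others carry organelle prefixes. Gene lists (41, and 7 of cell type markers) were written by hand, and 682 of 708 entries had their name at the listed locus and were used. The members and lists were chosen with earlier results of these data known. Genes named in the text are the CRWN and DUF2215 genes, the 12 largest rises and falls among genes that reach a mean of 5 FPKM in 1 triple without overlap (at most 3 without a symbol in each direction), up to 4 called members of each list by smallest adjusted p, and genes listed at 0 in 1 triple. Others are named as list members with their values, as neighbours of such genes or, where said, after their values were seen.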

Additional observations from a re-analysis of the deposited data

How the results depend on the processing

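Of the 80 named genes that passed, none turned in direction under any of the 24 alternatives or the requirement of 2-fold, 29 passed without each library in turn and 51 lost the call without at least 1. All 558 calls, 414 rises and 144 falls were recounted. Leaving out 1 library gave 121 to 647 calls, 71 to 490 rises and 50 to 157 falls, with the low ends all from triple mutant libraries. Without the intensity trend 216 genes passed (165 rises, 51 falls), with array weights 1170 (933 and 237), and in a fit on the 6 triple mutant libraries 1045 (836 rises). A pseudocount of 5 gave 625 rises. Median-ratio scaling gave 136 rises and 394 falls, quantile normalization 180 and 241, and rescaling to a common total 534 and 132. With at least 2-fold, 41 genes passed (29 and 12). The cause of these moves was not tested. Median-ratio scaling by construction removes the shift of all genes.

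The fit with a replicate block gave 405 calls, 291 rises and 114 falls. Same-numbered libraries of the triples did not deviate together (correlation of deviations from the group mean of -0.04 for each of the 3 numbers). These correlations cannot decide whether same-numbered samples were grown or collected together, and the labels do not state it.

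With 3 libraries in a group and an unknown depth, low genes are the least precise, and a gene that did not pass is not shown to be equal in the triples.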

Other observations

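AT3G22910 and EXO were also among the rises with calls in all 24 alternatives, picked out after their values were seen. AT3G22910, annotated as an ATPase of the E1-E2 type, was at 3.78, 3.08 and 3.40 FPKM in the pnet2_a triple and at 8.77, 6.5 and 10.6 FPKM in the pnet2_b triple, and was listed at 0 in WT (limma adjusted p = 0.00361). EXO, a gene of the phosphate-responsive 1 family tied to brassinosteroid growth responses, was at 20, 21.6 and 22.1 FPKM against 38.7, 42.7 and 40.6 FPKM (adjusted p = 0.00323). In both genes the libraries of the triples did not overlap. PRB1, a basic relative of PR1, fell instead, at 2.96, 3.42 and 5.82 FPKM against 0.454, 2.2 and 1.4 FPKM (adjusted p = 0.0406), and passed in 15 of 24 alternatives. PRB1 was likewise picked out after its values were seen.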
